A study of Mus musculus with 9 samples.

Results

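Dorsal and ventral pieces of mouse spinal cord were compared across all the genes of an Affymetrix array. The comparison uses 6 of the 9 arrays of the series, chosen by their titles: 3 of dorsal and 3 of ventral spinal cord, with the animal number in the title pairing the pieces of each of 3 animals. The intermediate pieces of the same animals were left out. Every group had the same age, postnatal day 6, and the same genotype, GAD65-GFP, in which green fluorescent protein is placed under control of the promoter of GAD65, an enzyme that makes GABA. There was no treatment, and no group without the transgene. Total RNA (500 ng per sample) was turned into biotin-labelled cRNA. No label speaks of sorting for fluorescence, and the values are read here as those of whole tissue pieces with all their cell types. The labels do not say whether pieces were pooled, nor where the cord was divided. Of 45037 probe sets, 34945 had a single gene symbol and stood for 18193 genes, of which 11593 were bright enough to be tested.

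The dorsal part of the cord receives sensory input: its dorsal horn holds layers of excitatory and inhibitory interneurons that relay and filter touch, pain, itch and temperature, many of them using neuropeptides beside a fast transmitter. The ventral part holds the motor neurons that drive skeletal muscle, the interneurons of the locomotor circuits, and thick white matter tracts. In young mice, oligodendrocytes wrap these tracts in myelin while neurons of the cord finish their wiring. Tissue pieces mix these cells, and in such bulk RNA fewer cells of a type and less RNA per cell cannot be told apart.

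The deposited values were read as log2 levels, since they ran from 2.15 to 16.23 on these arrays. On each array 36.0% to 36.3% of the probe sets stood at the lowest value, called the floor here, and array medians were 3.73 to 3.75 in dorsal and 3.69 to 3.70 in ventral pieces. Across probe sets, arrays of the same region correlated at 0.998 to 0.999 and arrays of different regions at 0.982 to 0.986, values that describe shared genes and not independent replicates. Some values were identical on all 3 arrays of a region (409 tested genes in dorsal and 393 in ventral pieces), which makes the spread there look smaller than it was. Identical values occurred from the floor up to 13.60 (Glrb in dorsal pieces). Where the lower region has them above the floor, as for Fads2b, C130021I20Rik, Lbx1, Gal, Gdf10, Otof, Pdyn and Pnoc, it is not known whether that level was measured, and the fold given is that of the deposited values and may be a bound. Levels are not comparable between probe sets, so only differences of the same gene between regions are given meaning below. Each difference is dorsal minus ventral on the log2 scale with the standard error of the fit after ±, n = 3 for either region, and limma with the animal as a block gave the adjusted p-values.

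The regions differed at a majority of the tested genes. Of 11593 genes, 6923 (59.7%) were called at an adjusted p below 0.05, with 3214 (27.7%) higher in dorsal and 3709 (32%) higher in ventral pieces. All 6923 had the same sign in the 3 animals, against 8959 genes (77.3%) of all tested, and the values of the regions did not overlap for 8128 genes (70.1%). Most differences were small: the median size of a called difference was 0.62 in the dorsal and 0.60 in the ventral direction. At 2-fold or more there were 880 genes (7.59%) higher in dorsal and 888 (7.66%) higher in ventral pieces. The numbers separated at larger sizes, with 254 dorsal against 129 ventral genes at a difference of at least 2 on the log2 scale, 91 against 37 at 3 and 38 against 9 at 4. Large dorsal differences were thus the more numerous. Without animal 3 the count of calls was 4384, and 3825 of the 6923 calls (55.3%) were kept whichever animal was left out.

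**Figure D1:**
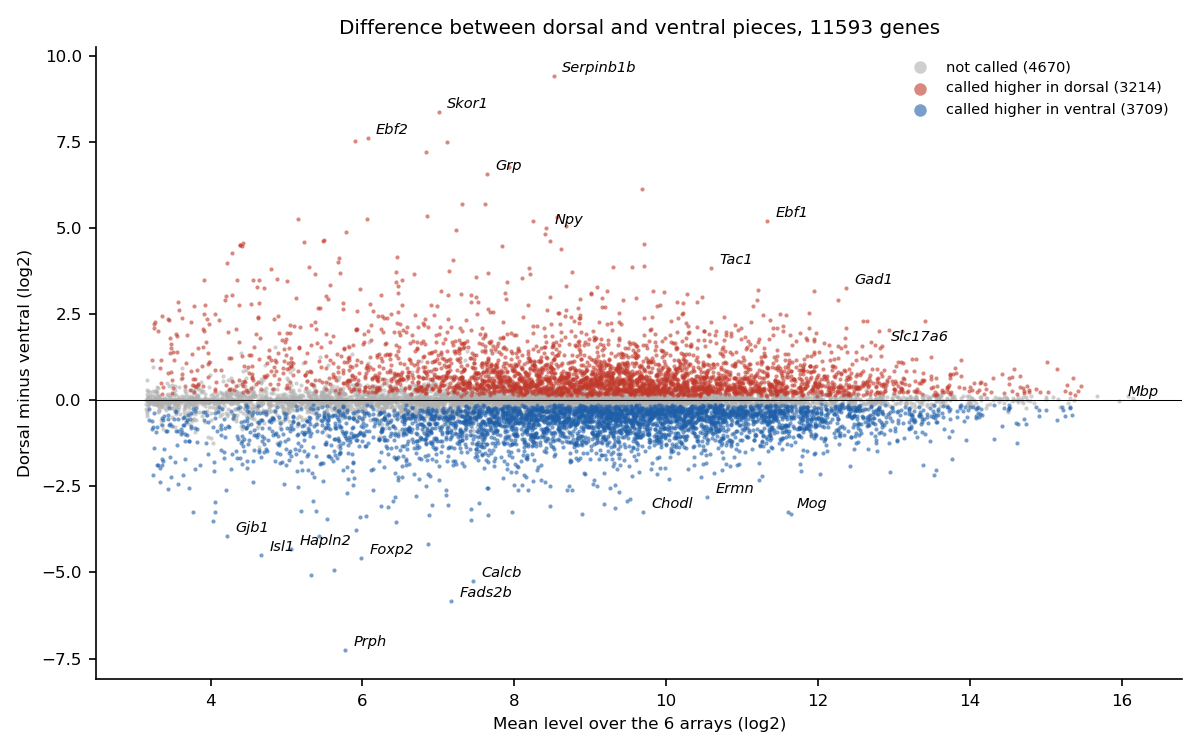
Difference between dorsal and ventral pieces (log2, vertical axis) against the mean level over the 6 arrays (log2, horizontal axis), a point per tested gene. Genes called higher in dorsal (3214) are red, those called higher in ventral (3709) blue and the others grey. The tail above 5 is fuller than the tail below -5, and Mbp lies near the upper end of the scale at a difference of -0.01, which was not called.

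The largest dorsal excess was that of Serpinb1b, a serine protease inhibitor of the serpin family. Its levels were 13.11, 13.41 and 13.16 in the dorsal pieces of animals 1 to 3 and 3.70, 3.58 and 4.15 in their ventral pieces. This was a 682-fold difference (9.41 ± 0.18, adjusted p = 0.000831), with every dorsal array far above every ventral one. Skor1, a transcriptional corepressor of dorsal spinal interneurons, had 10.98, 11.34 and 11.23 in dorsal against 2.56, 2.96 and 2.98 in ventral pieces, at least 326-fold (8.35 ± 0.05, adjusted p = 0.000647). Its ventral values lay within 1 log2 unit of the floor, so that the fold is a bound. The same holds for Ebf2, a transcription factor of the early B-cell factor family (at least 193-fold, 7.59 ± 0.07), for Tac2, the precursor of neurokinin B (at least 184-fold, 7.52 ± 0.10), and for Lmx1b, a homeodomain factor of dorsal excitatory neurons (at least 37.9-fold, 5.24 ± 0.08). The other genes among the 15 with the largest dorsal excess were C130021I20Rik (an unnamed transcript, 7.50), Ipcef1 (a partner of cytohesin exchange factors, 7.19), Prrxl1 (a homeodomain factor of pain and touch circuits, 6.75), Grp (gastrin-releasing peptide, a peptide of itch circuits, 6.56), Ebf3 (6.14), Camkv (a kinase-like vesicle protein, 5.69), Mab21l1 (5.69), Adcyap1 (the precursor of the peptide PACAP, 5.33), Bcl11b (a zinc finger transcription factor, 5.30) and Tex15 (5.25). None of the 15 calls was lost when an animal was left out.

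The largest ventral excess was that of Prph, which encodes peripherin, an intermediate filament of motor neurons and peripheral neurons. Prph was 2.15 on all 3 arrays in dorsal pieces, the floor of the table, and 9.53, 9.56 and 9.13 in ventral pieces. The fold was at least 154-fold (-7.26 ± 0.11, adjusted p = 0.000707), although a dimmer probe set of the same gene gave -0.02. Next came Fads2b, of the fatty acid desaturase family, at 4.25 on all 3 arrays in dorsal against 10.09, 9.95 and 10.22 in ventral pieces (57.2-fold on these values, -5.84 ± 0.07, adjusted p = 0.000707). Calcb, the precursor of a calcitonin gene-related peptide found in motor neurons, had 4.59, 4.86 and 5.04 against 10.23, 10.18 and 9.85 (38.2-fold, -5.25 ± 0.19, adjusted p = 0.00113). In all these genes the lowest ventral value was several log2 units above the highest dorsal one. The remaining genes of the top 15 were Fam216b (-5.07), Tm4sf1 (-4.93), Foxp2 and Isl1 (transcription factors of ventral neurons, -4.59 and -4.50), Hapln2 (a link protein at nodes of Ranvier, -4.33), Tesc (the calcium-binding protein tescalcin, -4.19), Gjb1 (a connexin of myelinating cells, -3.95), Dynlrb2 (a dynein light chain, -3.94), Pappa (a protease of IGF-binding proteins, -3.76), Thrsp (a regulator of fatty acid synthesis, -3.53), Ifitm6 (-3.51) and Igsf1 (-3.48, another probe set at -1.23). None of these 15 calls was lost when an animal was left out.

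**Figure D2:**
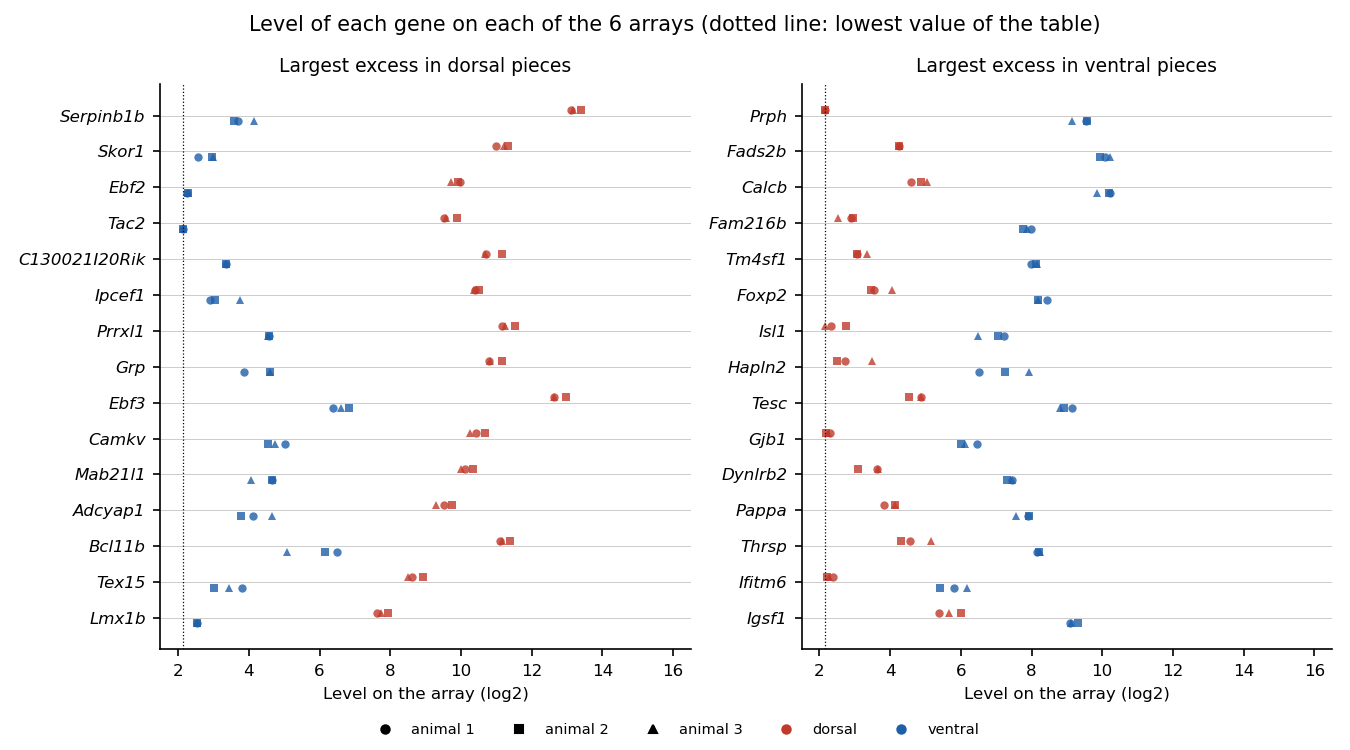
Levels (log2) on each of the 6 arrays of the 15 genes with the largest called excess in dorsal (left panel) and in ventral pieces (right panel). Red symbols are dorsal and blue ones ventral arrays, shapes mark the animals, and the dotted line is the lowest value of the table. In none of the 30 genes do the regions overlap.

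Transcription factors that mark dorsal horn neurons are the first list, given as a description and not as a check of the region labels. The list was chosen with earlier results of these data known. The counts of gene lists given from here on are over members that passed the filter on the mean of the 6 arrays, and they describe those members only. Each count is to be read against all tested genes, of which 27.7% were called higher in dorsal and 32% in ventral pieces. Over all tested genes 65 called higher in dorsal and 55 called higher in ventral pieces had a mean in the lower region under the filter limit, so that they were tested only because of the other region and had to differ. The list for excitatory neurons of the dorsal horn holds homeodomain factors and factors of other families, and of its 13 genes on the array, 8 were tested. All but Prdm8 were higher in dorsal pieces (7 of 8, against 27.7% of all tested genes), with a median difference of 5.21 against -0.02 over all genes. The mean level of the list lay between 10.76 and 10.93 on the dorsal and between 6.16 and 6.33 on the ventral arrays. Prrxl1 had 11.16, 11.53 and 11.24 in dorsal and 4.56, 4.56 and 4.55 in ventral pieces (108-fold, adjusted p = 0.000707). Ebf1, at 14.06, 13.92 and 13.79 against 8.85, 8.76 and 8.60, was 36.4-fold higher (5.19 ± 0.04, adjusted p = 0.000647), and Ebf3 was 70.6-fold higher. Lmx1b stood at 7.63, 7.94 and 7.73 in dorsal pieces and at 2.53 on all 3 arrays in ventral ones. Pou4f1, a POU factor (22.4-fold, 4.49 ± 0.19), and Maf, a leucine zipper factor of touch-related neurons (3.44-fold, 1.78 ± 0.05), followed. Prdm8, a transcriptional repressor, was slightly higher in ventral pieces (-0.23 ± 0.04, adjusted p = 0.0145), a call lost with fewer animals (adjusted p = 0.0633 without animal 2 and 0.0876 without animal 3). Ebf2 and Lmx1b passed the filter through the dorsal arrays alone. The other 5 genes, Tlx1, Tlx3, Phox2a, Barhl1 and Barhl2, were below the filter and not tested. Of these, 2 were at the floor throughout, Tlx1 and Phox2a. Tlx3 had 2.56, 3.47 and 2.85 in dorsal pieces and was at the floor in ventral ones.

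Inhibitory dorsal neurons arise under another set of factors, and 8 of the 9 tested were higher in dorsal pieces, with a median of 2.12. Lbx1, which directs progenitors to a dorsal sensory fate, had 8.29, 8.52 and 7.87 in dorsal and 3.35 on all 3 arrays in ventral pieces (29.4-fold on these values, 4.88 ± 0.15, adjusted p = 0.00102). Gbx1 was 6.63, 6.83 and 6.46 against 2.15 on all 3 arrays, the floor, and so at least 22.5-fold higher (4.49 ± 0.09, adjusted p = 0.000831). Tfap2b (6.74-fold, 2.75 ± 0.04), Lhx1 (6.18-fold, 2.63 ± 0.09), Sall3 (4.35-fold, 2.12 ± 0.09) and Rorb (1.79-fold, 0.84 ± 0.08) were higher in dorsal pieces too. The calls of Gbx2 (1.59 ± 0.38; adjusted p = 0.153 without animal 1 and 0.0993 without animal 2) and Tfap2a (0.72 ± 0.17; adjusted p = 0.157 without animal 2 and 0.136 without animal 3) were lost with fewer animals, and Lhx5 was not called (-0.14 ± 0.06, adjusted p = 0.139). Gbx1 and Tfap2b passed the filter through the dorsal arrays alone. Another 4 genes of the list were below the filter, among them Ptf1a, which initiates the inhibitory fate in the embryo and was at the floor on all 6 arrays. Zic factors, zinc finger proteins of dorsal neural tissue, were higher in dorsal pieces for all 4 genes measured. Zic1 had 13.66, 13.70 and 13.79 against 10.80, 11.07 and 10.59 (7.47-fold, 2.90 ± 0.13, adjusted p = 0.00132), and Zic4 (4.61-fold, 2.21 ± 0.06), Zic5 (2.4-fold, 1.26 ± 0.06) and Zic2 (1.47-fold, 0.55 ± 0.07) followed.

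A list of regulators linked to the layers of the dorsal horn had calls in both directions. Of 14 measured, 9 were higher in dorsal (27.7% of all tested genes were) and 4 in ventral pieces, the latter near the 32% of all. Their median was 0.77. Bcl11b had 11.11, 11.38 and 11.16 in dorsal and 6.50, 6.17 and 5.08 in ventral pieces (39.4-fold, 5.30 ± 0.33, adjusted p = 0.0019), the ventral arrays being the more variable ones. Its relative Bcl11a was 14.6-fold higher (3.87 ± 0.09, other probe sets from 0.53 to 4.74), and the teashirt factors Tshz2 (8.85-fold), Tshz3 (6.61-fold) and Tshz1 (3.46-fold) were higher as well. In the other direction, the nuclear factor I genes Nfia (-0.95 ± 0.05) and Nfix (-0.77 ± 0.05) and the homeodomain gene Meis2 (-0.53 ± 0.06) were higher in ventral pieces. Nfib was called too (-0.21 ± 0.04, adjusted p = 0.0136), with the call lost whichever animal was left out (adjusted p = 0.0541, 0.0648 and 0.0755 with animal 1, 2 or 3 left out). Pbx3 did not differ beyond the test (-0.10 ± 0.03, adjusted p = 0.082).

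Hox genes, whose nested expression gives the cord its identity along the head to tail axis, were more often called higher in dorsal than in ventral pieces. Of 33 on the array 21 were tested: 14 were higher in dorsal (27.7% of all tested genes were), 5 in ventral pieces (32% of all) and 2 were not called, with a median of 0.64. Hoxd1 passed the filter through the ventral arrays alone. The B cluster led: Hoxb9 had 10.63, 10.81 and 10.89 in dorsal and 6.15, 6.14 and 6.21 in ventral pieces (24.4-fold, 4.61 ± 0.06, adjusted p = 0.000707). Hoxb5 (11.8-fold), Hoxb6 (7.85-fold), Hoxa7 (5.91-fold) and Hoxb3 (5.59-fold) came next. Ventral pieces had more Hoxd1 (at least 3.92-fold, -1.97 ± 0.09), Hoxd10 (2.79-fold, -1.48 ± 0.06), Hoxc10 (2.27-fold, -1.18 ± 0.08) and Hoxd8 (-0.50 ± 0.04). Hoxd10 lay at 9.47, 9.37 and 9.19 in dorsal and 10.84, 10.90 and 10.74 in ventral pieces, without overlap. The ventral call of Hoxd9 (-0.35 ± 0.04) was lost without animal 3 (adjusted p = 0.0501). The largest ventral differences were thus in the C and D clusters. The brightest gene that was not called was Hoxc8 (-0.03 ± 0.06, adjusted p = 0.736).

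Transcription factors of ventral interneurons were mostly too dim to test: of 32 on the array, 19 were below the filter. Of the 13 others 10 were called higher in ventral pieces (32% of all tested genes were) and 3 were not called, with a median of -1.52. Tal1, Sp8 and Nkx6-1 passed the filter through the ventral arrays alone, so that the count describes the list and does not bear on the label. Foxp2, a forkhead factor of a class of ventral inhibitory interneurons, had 3.55, 3.45 and 4.06 in dorsal and 8.43, 8.19 and 8.20 in ventral pieces (24-fold, -4.59 ± 0.18, adjusted p = 0.00123). Nkx6-1, a homeodomain factor of ventral progenitors, was at the floor on all dorsal arrays and at 5.12, 4.90 and 4.20 in ventral pieces (at least 6.03-fold, -2.59 ± 0.21, adjusted p = 0.00305). Sp8, a zinc finger factor, was likewise at the floor in dorsal pieces (at least 4.56-fold, -2.19 ± 0.18). Onecut2 (3.79-fold), Irx5 (3.51-fold), Nkx2-2, a factor of the most ventral progenitors and of the oligodendrocyte lineage (3.08-fold), Irx3 (2.87-fold) and Sox21 (-0.82 ± 0.05) were higher too. The calls of Tal1 (-0.98 ± 0.21; adjusted p = 0.0967 without animal 2 and 0.0693 without animal 3) and Foxp1 (-0.90 ± 0.13; adjusted p = 0.0667 without animal 1) were lost with fewer animals. Shox2, a factor of rhythm-generating interneurons, was not called: its dorsal values were 2.15, 3.98 and 4.10 and its ventral ones 4.62, 4.62 and 4.69, so that dorsal array 1 alone was at the floor (-1.24 ± 0.47, adjusted p = 0.102). Gata2 (-0.38) and Sim1 (-0.11) were not called either.

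Motor neuron genes marked the ventral pieces unevenly. Of 27 genes on the array 16 were tested: 8 were higher in ventral (32% of all tested genes were) and 2 in dorsal pieces (27.7% of all), with a median of -0.83. Of these, Isl1 and Prph passed the filter through the ventral and Cpne4 through the dorsal arrays alone. Isl1, a LIM homeodomain factor of motor neurons and of a dorsal interneuron class, was 2.33, 2.76 and 2.15 in dorsal pieces, near the floor, and 7.21, 7.05 and 6.50 in ventral ones (at least 22.7-fold, -4.50 ± 0.15, adjusted p = 0.00104). Chodl, a membrane protein of fast motor neurons, had 7.95, 8.09 and 8.14 against 11.51, 11.36 and 11.08 (9.56-fold, -3.26 ± 0.14, adjusted p = 0.00128). Esrrg, an orphan nuclear receptor of gamma motor neurons, had 6.78, 6.89 and 7.16 against 9.99, 9.99 and 10.06 (8.41-fold, -3.07 ± 0.08, adjusted p = 0.000878). Each of these ventral values exceeded each dorsal one. Bcl6 (3.55-fold, -1.83 ± 0.09) and the receptor tyrosine kinase Ret (2.21-fold, -1.14 ± 0.11) were also higher in ventral pieces, while the call of its co-receptor Gfra1 (-0.36 ± 0.07) was lost without animal 2 or 3 (adjusted p = 0.0918 and 0.063). Exceptions were Cpne4, a calcium-dependent membrane-binding copine, higher in dorsal pieces by at least 11.1-fold (3.47 ± 0.18), and Ache, which encodes acetylcholinesterase (1.71-fold, 0.77 ± 0.08). Genes that define a cholinergic cell gave no signal above the floor: Chat, which makes acetylcholine, its vesicular transporter Slc18a3 and the choline transporter Slc5a7 were at the floor on all 6 arrays. The motor neuron factor Mnx1 was at the floor on the dorsal arrays and at 2.35, 3.19 and 2.30 on the ventral ones, below the filter. Why these probe sets gave no signal was not tested.

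Neurofilament proteins build the thick axons of large projecting neurons, and 4 of the 5 genes were higher in ventral pieces, with a median of -1.70. Nefh had 9.72, 9.97 and 10.31 in dorsal and 13.33, 13.31 and 13.25 in ventral pieces (9.84-fold, -3.30 ± 0.15, adjusted p = 0.00134). Nefm (3.26-fold, -1.70 ± 0.08) and Nefl (2.23-fold, -1.16 ± 0.10) followed in that order, and Ina, the internexin of fine axons, did not differ beyond the test (-0.08 ± 0.06, adjusted p = 0.295). Prph completes the list and passed the filter through the ventral arrays alone. Because Prph showed the largest ventral excess, its promoter is shown, as the 250 bases before the RefSeq transcription start on GRCm38.p6 at chr15:99054924-99055173, plus strand. The capitals mark the letters of a TATA box, TATAAA, whose first base is 31 bases before the start.
Prph: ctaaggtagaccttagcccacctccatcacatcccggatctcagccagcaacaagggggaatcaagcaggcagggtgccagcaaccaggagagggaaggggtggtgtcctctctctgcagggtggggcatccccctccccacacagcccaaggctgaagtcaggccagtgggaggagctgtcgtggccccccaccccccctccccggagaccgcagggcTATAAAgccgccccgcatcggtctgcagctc
These letters occurred, on either strand, in 12.4% of all 32851 promoter windows of that length, in 6.36% of those of tested genes and in 6.8% of those of genes at least 2-fold higher in ventral pieces. Such a match describes the letters and is not evidence of a working site.

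Sensory peptide precursors gave the most uniform dorsal excess of the lists of neuronal signalling genes. Of 21 tested, 19 were higher in dorsal and 1 in ventral pieces, with a median of 2.28, and 17 of the 19 exceeded 2-fold (7.59% of all tested genes did so). Tac2, Nmu and Trh passed the filter through the dorsal arrays alone. Tac2 was 9.52, 9.90 and 9.58 in dorsal pieces and 2.15 on all 3 arrays, the floor, in ventral ones (at least 184-fold, adjusted p = 0.000707). Grp had 10.79, 11.17 and 10.81 against 3.87, 4.61 and 4.61 (94.5-fold, 6.56 ± 0.16, adjusted p = 0.000878). Adcyap1 had 9.51, 9.73 and 9.31 against 4.12, 3.79 and 4.65 (40.4-fold, 5.33 ± 0.29, adjusted p = 0.00163). In these precursors the dorsal arrays lay close together and more than 4 log2 units above the ventral ones. Npy, the precursor of neuropeptide Y of inhibitory neurons, was 10.85, 11.09 and 10.80 against 5.99, 5.98 and 5.80 (31.8-fold, 4.99 ± 0.07), and Cck, the cholecystokinin precursor of excitatory neurons, was 28.1-fold higher (4.81 ± 0.04). Tac1, which encodes substance P, had 12.43, 12.57 and 12.55 in dorsal and 8.67, 8.74 and 8.65 in ventral pieces (14.2-fold, 3.83 ± 0.05, adjusted p = 0.000707).

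Opioid and related peptides followed the same direction. Pdyn, the prodynorphin gene, was 9.33-fold higher in dorsal pieces (3.22 ± 0.08), Penk, the proenkephalin gene, 4.82-fold (2.27 ± 0.07) and Pnoc, the precursor of nociceptin, 4.79-fold (2.26 ± 0.07). Sst, somatostatin, had 11.81, 12.15 and 11.96 in dorsal and 9.05, 9.02 and 8.90 in ventral pieces (7.9-fold, 2.98 ± 0.09, adjusted p = 0.00102). Its ventral level was thus well above the floor, as were those of Tac1 and Penk. Gal (7.59-fold, 2.92 ± 0.10), Nmu (at least 6.58-fold, 2.72 ± 0.04), Nts (4.85-fold, 2.28 ± 0.07), the granin gene Scg2 (4-fold, 2.00 ± 0.07), Crh (2.66-fold, 1.41 ± 0.10), Trh (at least 2.63-fold, 1.39 ± 0.14) and the neurexophilin gene Nxph1 (0.60 ± 0.06) were higher in dorsal pieces too. The calls of Npff (1.29 ± 0.20; adjusted p = 0.072 without animal 3) and Nppc (0.81 ± 0.15; adjusted p = 0.077 without animal 1 and 0.0647 without animal 3) were lost with fewer animals. Cartpt, the precursor of the CART peptide, was the exception at -0.52 ± 0.09 (adjusted p = 0.0162), with 3 identical dorsal values and a call lost without animal 1 or 3 (adjusted p = 0.0866 and 0.0917). Nmb was not called (0.39 ± 0.16, adjusted p = 0.118).

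**Figure D3:**
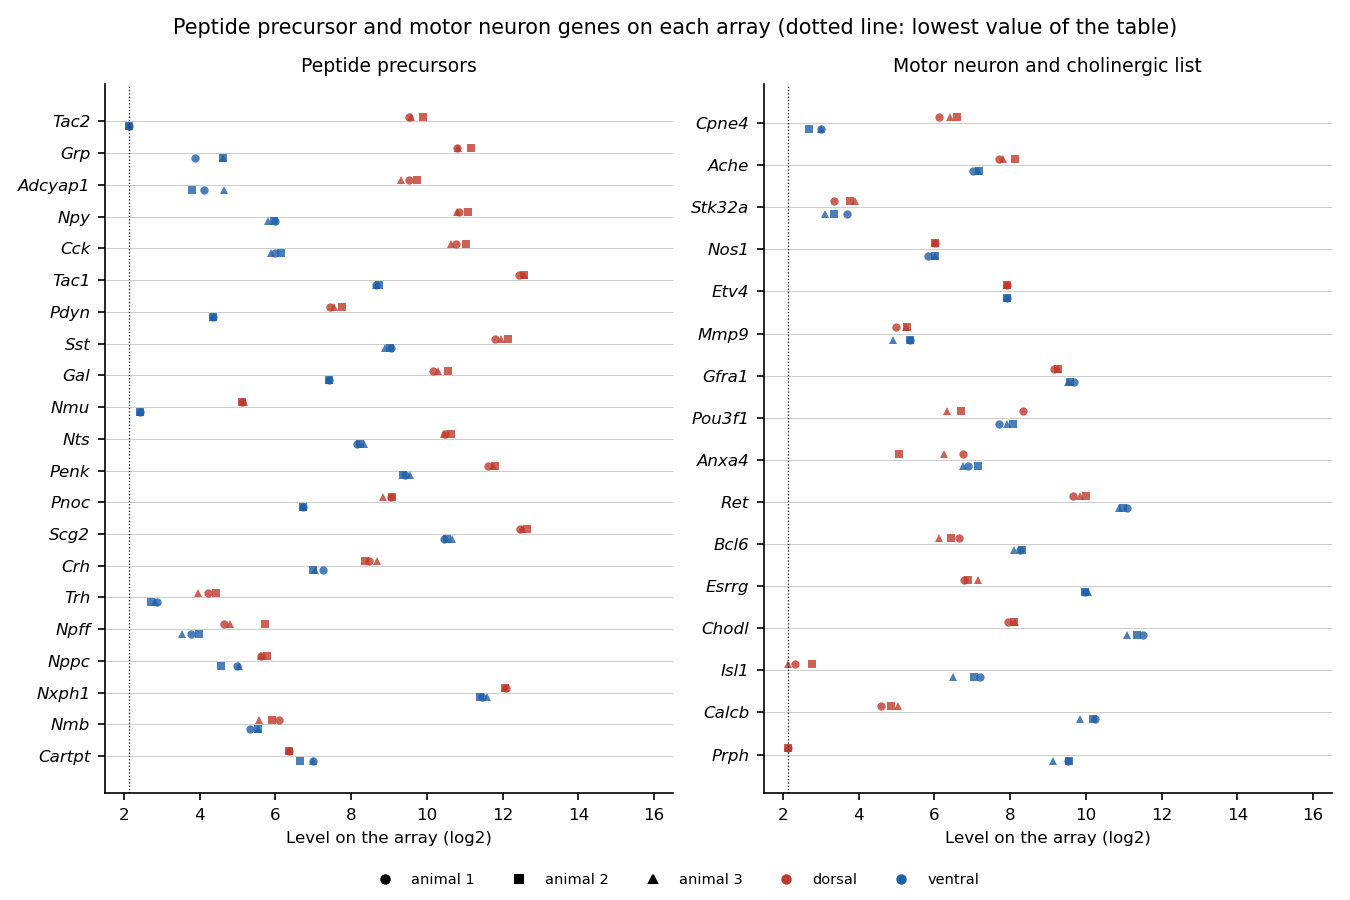
Levels (log2) of the tested sensory peptide precursors (left panel) and of the motor neuron and cholinergic list (right panel) on each array, sorted by difference. Red symbols are dorsal and blue ones ventral arrays, shapes mark the animals, and the dotted line is the lowest value of the table. Peptide genes lie to the right in dorsal pieces down to Nxph1, whereas the motor neuron list has genes on both sides, from Cpne4 (3.47) to Prph (-7.26).

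Promoters of a pair of these precursors are shown because both genes were bright and strongly dorsal and their windows hold the letters of different short motifs. Each is the 250 bases before the RefSeq start on GRCm38.p6, in the direction of the gene. The Sst window is chr16:23890845-23891094 on the minus strand, and the capitals mark TGACGTCA, the cyclic AMP response element, for which this gene is a standard example, with its first base 48 bases before the start. The Tac1 window is chr6:7554811-7555060 on the plus strand, and the capitals mark TAATTA, a core recognised by many homeodomain factors, 100 bases before the start.
Sst: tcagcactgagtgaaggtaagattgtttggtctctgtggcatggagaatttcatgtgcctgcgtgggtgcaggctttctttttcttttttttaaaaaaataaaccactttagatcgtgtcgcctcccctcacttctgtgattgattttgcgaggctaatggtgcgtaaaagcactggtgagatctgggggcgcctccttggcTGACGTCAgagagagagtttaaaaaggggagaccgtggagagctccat
Tac1: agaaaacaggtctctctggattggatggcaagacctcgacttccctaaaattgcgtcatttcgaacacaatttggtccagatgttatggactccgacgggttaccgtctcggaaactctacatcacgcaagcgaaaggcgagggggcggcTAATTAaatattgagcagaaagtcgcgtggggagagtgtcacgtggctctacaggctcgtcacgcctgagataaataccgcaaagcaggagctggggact
TGACGTCA, counted on both strands, was in 1.55% of all promoter windows, in 2.5% of those of tested genes, in 2.09% of those of genes at least 2-fold higher in dorsal and in 1.84% of those at least 2-fold higher in ventral pieces. For TAATTA the shares were 4.84%, 2.34%, 2.2% and 2.27%. Promoters of 9410 tested genes were matched by symbol. The shares are descriptions without a test, and a match of letters alone is not evidence of a working site.

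Receptors for peptides were mostly, but less uniformly, higher in dorsal pieces. Of 18 tested, 13 were higher there (27.7% of all tested genes were) and 4 in ventral pieces (32% of all). The median was 0.83. Below the filter were 12 further genes, among them the tachykinin receptor Tacr1, the Grp receptor Grpr and the opioid receptors Oprm1 and Oprd1. Tacr1 and Oprd1 were at the floor on all 6 arrays. Grpr had 2.83, 2.78 and 2.57 in dorsal pieces and was at the floor in ventral ones. Gpr83, Sstr2 and Galr1 passed the filter through the dorsal and Npr3 through the ventral arrays alone. Nmbr, the neuromedin B receptor, had 8.20, 7.72 and 7.55 in dorsal and 3.18, 3.15 and 3.15 in ventral pieces (25.2-fold, 4.66 ± 0.14, adjusted p = 0.00102). The orphan receptor Gpr83 (at least 8.04-fold, 3.01 ± 0.21), the neuropeptide Y receptor Npy5r (5.53-fold, 2.47 ± 0.07), the neurokinin B receptor Tacr3 (5.32-fold, 2.41 ± 0.15) and the somatostatin receptor Sstr2 (at least 4.77-fold, 2.25 ± 0.11) came next. In contrast, another neuropeptide Y receptor, Npy2r, was higher in ventral pieces, at 3.67, 3.56 and 3.57 in dorsal and 5.43, 5.36 and 5.28 in ventral (3.37-fold, -1.75 ± 0.04, adjusted p = 0.000878). Ntsr2, a neurotensin receptor that astrocytes express, was also higher in ventral pieces (4.66-fold, -2.22 ± 0.09). The precursor of neuropeptide Y and its Npy2r receptor thus differed in opposite directions, while Npy5r and Npy1r (3.66-fold, 1.87 ± 0.17) went with the precursor. Ventral calls of Npr3 (-1.18 ± 0.28; adjusted p = 0.152 without animal 2 and 0.152 without animal 3) and Adcyap1r1 (-0.26 ± 0.07; adjusted p = 0.105, 0.151 and 0.0618 with animal 1, 2 or 3 left out) were lost with fewer animals, which left 2 ventral calls without animal 2 or without animal 3.

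Calcium-binding proteins, some of which mark classes of neurons, were higher in dorsal pieces for 13 of 17 genes (27.7% of all tested genes were). Parvalbumin (Pvalb) was below the filter, at 2.40 or less on all arrays. Their median was 1.12. Hpcal4, a neuronal calcium sensor, led at 23.2-fold (4.54 ± 0.13), followed by Necab1 (21.1-fold, 4.40 ± 0.15) and Kcnip2 (16.9-fold, 4.08 ± 0.05). Calretinin (Calb2) had 11.47, 11.94 and 11.54 in dorsal and 7.80, 7.85 and 7.64 in ventral pieces (14.8-fold, adjusted p = 0.000878). Calbindin (Calb1) had 11.40, 11.63 and 11.43 against 7.63, 7.63 and 7.60 (14.6-fold, adjusted p = 0.000707). Both sets of values were tight and far apart. Ventral pieces had more Cabp7 (3.33-fold, -1.73 ± 0.08) and more of the annexin partner S100a10 (-0.91 ± 0.10). Of the protein kinase C isoforms, 7 of 8 were higher in dorsal pieces (27.7% of all tested genes were), with a median of 0.55. They were led by Prkce (2.95-fold, 1.56 ± 0.08), Prkca (2.69-fold, 1.43 ± 0.11, with another probe set at -0.07) and Prkcb (2.63-fold, 1.40 ± 0.06). The smaller calls of Prkcd (0.67 ± 0.14; adjusted p = 0.113 without animal 1 and 0.0596 without animal 3), Prkcq (0.40 ± 0.05; adjusted p = 0.0507 without animal 1), Prkci (0.39 ± 0.06; adjusted p = 0.0653 without animal 2 and 0.0731 without animal 3) and Prkcz (0.44 ± 0.06; adjusted p = 0.0507 without animal 2; another probe set at -0.73) were each lost without some animal. Prkch was not called (-0.22 ± 0.09, adjusted p = 0.124).

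Inhibitory transmission divided by gene. Gad1, the larger GABA-synthesising enzyme, had 13.96, 14.08 and 13.94 in dorsal and 10.60, 10.77 and 10.87 in ventral pieces (9.5-fold, 3.25 ± 0.08, adjusted p = 0.000878). Gad2, which encodes the enzyme GAD65 whose promoter drives the transgene, differed far less, at 10.38, 10.43 and 10.49 against 9.64, 9.85 and 9.80 (1.59-fold, 0.67 ± 0.05, adjusted p = 0.00251). The vesicular transporter of GABA and glycine, Slc32a1, had 10.27, 10.52 and 10.35 against 9.54, 9.54 and 9.66 (1.74-fold, 0.79 ± 0.08, adjusted p = 0.00408). All 3 genes were without overlap between regions. Of the 8 GABAergic genes, 4 were higher in dorsal (27.7% of all tested genes were) and 2 in ventral pieces (32% of all), with a median of 0.49. Slc6a11, the GABA transporter of astrocytes, was higher in ventral pieces (2.02-fold, -1.02 ± 0.07). The calls of Gabbr1 (0.31 ± 0.06; adjusted p = 0.068 without animal 2 and 0.107 without animal 3) and Aldh5a1 (-0.34 ± 0.05; adjusted p = 0.0586 without animal 2 and 0.0553 without animal 3) were lost with fewer animals. Abat (-0.11) and the transporter Slc6a13 of meninges (0.97 ± 0.38, adjusted p = 0.103) were not called.

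Glycine genes were called in both directions. Of 8, 5 were higher in dorsal (27.7% of all tested genes were) and 3 in ventral pieces, the latter near the 32% of all. Their median was 0.21. Slc6a9, the glial glycine transporter, had 8.60, 8.80 and 8.99 in dorsal and 10.09, 10.40 and 10.32 in ventral pieces (2.77-fold, -1.47 ± 0.07, adjusted p = 0.00138). Slc6a5, the neuronal glycine transporter, was higher in ventral pieces by 1.47-fold (-0.56 ± 0.07, adjusted p = 0.00679), a call lost without animal 3 (adjusted p = 0.0539). The adult receptor subunit Glra1 was higher in ventral (-0.70 ± 0.05) and Glra3 in dorsal pieces (1.37 ± 0.03). Small dorsal calls of Glra2 (0.28 ± 0.06; adjusted p = 0.0755, 0.0653 and 0.0771 with animal 1, 2 or 3 left out), Glrb (0.15 ± 0.04; adjusted p = 0.109, 0.127 and 0.121 with animal 1, 2 or 3 left out) and the scaffold gephyrin, Gphn (0.26 ± 0.04; adjusted p = 0.0501 without animal 2 and 0.0703 without animal 3; another probe set at -0.65), were lost with fewer animals, so that 3 dorsal calls were left without animal 1 and 2 without animal 2 or 3. On the excitatory side, Slc17a6, the vesicular glutamate transporter of spinal neurons, had 13.55, 13.70 and 13.67 in dorsal and 12.02, 12.01 and 12.14 in ventral pieces (3-fold, 1.58 ± 0.05, adjusted p = 0.00112). The glutamine transporter Slc38a1 (0.47 ± 0.04) was also higher in dorsal pieces. The astrocytic glutamate transporters Slc1a3 (2.78-fold, -1.47 ± 0.07) and Slc1a2 (-0.48 ± 0.04) were higher in ventral pieces. The neuronal transporter Slc1a1 was not called (-0.16 ± 0.09, adjusted p = 0.2), and the ventral call of Slc38a2 (-0.37 ± 0.05, another probe set at 0.06) was lost without animal 2 or 3 (adjusted p = 0.0624 and 0.0669).

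Receptors for the fast transmitters separated by subunit. Of 13 ionotropic glutamate receptor genes, 10 were higher in dorsal (27.7% of all tested genes were) and 1 in ventral pieces, with a median of 1.43. Gria2, the AMPA receptor subunit that limits calcium entry, had 14.69, 14.53 and 14.43 in dorsal and 12.34, 12.24 and 12.22 in ventral pieces (4.88-fold, 2.29 ± 0.05, adjusted p = 0.000831). The NMDA receptor subunit Grin2b (3.7-fold, 1.89 ± 0.04), the kainate subunit Grik1 (3.35-fold, 1.74 ± 0.04), the AMPA subunit Gria1 (3.28-fold, 1.71 ± 0.04), Grik5 (2.87-fold, 1.52 ± 0.19), Grin3a (2.76-fold, 1.47 ± 0.07), Grik2 (2.7-fold, 1.43 ± 0.04), Grid1 (0.74 ± 0.06) and Grin2d (0.56 ± 0.06) shared that direction. By contrast the AMPA subunit Gria4 was not called (-0.07 ± 0.07, adjusted p = 0.422), nor was Grik3 (0.05), and the small calls of Gria3 (0.22 ± 0.04; adjusted p = 0.0888 without animal 1 and 0.125 without animal 3) and Grik4 (-0.23 ± 0.04; adjusted p = 0.0582, 0.0776 and 0.0662 with animal 1, 2 or 3 left out) were lost with fewer animals. Of 8 GABA-A receptor subunits, 4 were higher in each region, against 27.7% of all tested genes in dorsal and 32% in ventral pieces. Dorsal pieces had more Gabra5 (3.19-fold, 1.67 ± 0.08), Gabrg3 (3.09-fold, 1.63 ± 0.13), Gabra3 (2.9-fold, 1.53 ± 0.05) and Gabrb2 (2.05-fold, 1.03 ± 0.09), and ventral pieces more Gabra4 (-0.74 ± 0.05), Gabrb1 (-0.67 ± 0.04) and Gabra2 (-0.56 ± 0.05). The ventral call of Gabrg1 (-0.42 ± 0.06) was lost without animal 1 or 3 (adjusted p = 0.0542 and 0.0584).

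Few receptors for modulatory transmitters passed the filter (8 of 19 monoamine and 5 of 15 acetylcholine receptor genes on the array). Of these, Drd2 and Htr1d passed it through the dorsal and Chrna5 through the ventral arrays alone. Drd2, a dopamine receptor, had 5.01, 5.14 and 4.84 in dorsal pieces and was at the floor on all ventral arrays (at least 7.22-fold, 2.85 ± 0.07, adjusted p = 0.000878). The serotonin receptor Htr1b was higher in ventral pieces, at 7.19, 7.32 and 7.44 in dorsal and 9.08, 8.92 and 9.08 in ventral (3.28-fold, -1.72 ± 0.08, adjusted p = 0.00132). Htr7 (0.78 ± 0.04) was higher in dorsal pieces, and the dorsal calls of Htr1d (2.33 ± 0.45; adjusted p = 0.0541 without animal 2 and 0.104 without animal 3), Htr1a (0.78 ± 0.11; adjusted p = 0.062 without animal 3) and Drd1 (0.62 ± 0.09; adjusted p = 0.0554 without animal 3) were lost with fewer animals. Without animal 3 the dorsal calls in this list numbered 2 in place of 5. The nicotinic receptor subunits Chrnb2 (2.81-fold, 1.49 ± 0.06), Chrna3 (0.83 ± 0.04) and Chrna7 (0.57 ± 0.04) were higher in dorsal pieces, and the ventral call of Chrna5 (-1.38 ± 0.22; adjusted p = 0.0551 without animal 2 and 0.0554 without animal 3) was lost with fewer animals.

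Voltage-gated sodium and calcium channel genes were higher in dorsal pieces for 17 of 22 (27.7% of all tested genes were), with a median of 1.32. The T-type calcium channel gene Cacna1h had 9.21, 9.51 and 9.36 in dorsal and 6.20, 7.0 and 6.05 in ventral pieces (7.7-fold, 2.94 ± 0.18, adjusted p = 0.0019). Cacna2d1, the subunit that gabapentin binds, was 7.21-fold higher (2.85 ± 0.06), although its other probe sets ranged from -0.06 to 5.16. Cacna1e (6.6-fold, 2.72 ± 0.06), Cacna1g (4.25-fold, 2.09 ± 0.09) and the sodium channel of immature neurons Scn3a (4.02-fold, 2.01 ± 0.07) followed. The exception was Scn4b, a sodium channel subunit of fast-firing neurons, which had 3.98, 3.55 and 4.15 in dorsal and 6.82, 6.67 and 6.95 in ventral pieces (7.56-fold, -2.92 ± 0.08, adjusted p = 0.000967). Scn8a, the sodium channel of nodes of Ranvier, was called higher in ventral pieces (-0.43 ± 0.07), a call lost without animal 3 (adjusted p = 0.0758), and Scn1a (-0.18 ± 0.09, adjusted p = 0.168) was not called. Potassium channel genes were mixed, with 10 of 20 higher in dorsal (27.7% of all tested genes were), 3 in ventral pieces (32% of all) and 7 not called. Kcna5 (7.98, 7.19 and 7.92 against 3.89, 3.56 and 3.56, 16.2-fold) and Kcnc2 (10.59, 10.74 and 10.55 against 7.04, 6.95 and 6.72, 13.2-fold) had the largest dorsal excess (adjusted p = 0.00128 and 0.000831), followed by Kcnq5 (4.61-fold, 2.21 ± 0.06), Kcna4 (3.49-fold, 1.80 ± 0.04) and Kcnd3 (3-fold, 1.59 ± 0.09). The axonal channel gene Kcna2 (-0.36 ± 0.04) was higher in ventral pieces, whereas the ventral calls of its partner Kcna1 (-0.93 ± 0.17; adjusted p = 0.0989 without animal 2 and 0.0985 without animal 3) and of Kcnab2 (-0.32 ± 0.06; adjusted p = 0.107 without animal 1 and 0.101 without animal 3) were lost with fewer animals.

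Genes of the synaptic vesicle and its release were higher in dorsal pieces for 24 of 32 (27.7% of all tested genes were), with a median of 0.93. Syt1, the main calcium sensor of fast release, had 12.58, 12.81 and 12.57 in dorsal and 9.65, 9.79 and 9.78 in ventral pieces (7.52-fold, 2.91 ± 0.06, adjusted p = 0.000878). Syt9 (8.21-fold, 3.04 ± 0.14), the vesicle protein gene Synpr (5.5-fold, 2.46 ± 0.11), Doc2b (4.36-fold, 2.12 ± 0.21) and Syt4 (3.88-fold, 1.96 ± 0.10) were among the largest. Syt2, the calcium sensor of motor and other fast synapses, opposed the list at 8.27, 8.11 and 8.66 in dorsal and 10.44, 10.25 and 10.39 in ventral pieces (4.04-fold, -2.01 ± 0.12, adjusted p = 0.00175). So did Syt17 (6.13-fold, -2.62 ± 0.24) and the vesicle SNARE gene Vamp1 (2.11-fold, -1.08 ± 0.10), while Vamp2 (2.51-fold, 1.33 ± 0.07) was higher in dorsal pieces. Of these paired relatives, then, Syt1 and Vamp2 were higher in dorsal and Syt2 and Vamp1 in ventral pieces. Syt11 was higher in ventral pieces (-0.36 ± 0.04), and the ventral call of Cplx1 (-0.79 ± 0.13; adjusted p = 0.0717 without animal 2 and 0.0511 without animal 3) was lost with fewer animals.

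Extracellular matrix of perineuronal nets and nodes was mainly ventral, with 9 of 11 genes higher there (32% of all tested genes were) and a median of -1.20. Hapln2 had 2.72, 2.49 and 3.48 in dorsal and 6.51, 7.24 and 7.93 in ventral pieces (20.1-fold, -4.33 ± 0.22, adjusted p = 0.00151). It passed the filter through the ventral arrays alone. Dorsal arrays 1 and 2 were within 1 log2 unit of the floor, so that the fold may be a bound. Hapln1, the cartilage link protein, had 7.12, 7.23 and 7.34 against 9.87, 9.50 and 9.76 (5.58-fold, -2.48 ± 0.11, adjusted p = 0.00133). The aggrecanase Adamts4 (4.91-fold, -2.29 ± 0.12), Hapln4 (3.52-fold, -1.82 ± 0.09), the tenascin genes Tnr (2.41-fold, -1.27 ± 0.07) and Tnc (-0.51 ± 0.06), and the proteoglycans Vcan (2.29-fold, -1.20 ± 0.07) and Bcan (-0.74 ± 0.06) had the same direction, and Ncan as well (-0.56 ± 0.08; adjusted p = 0.0579 without animal 2). Adamts5 was higher in dorsal pieces (0.99 ± 0.06) and Crtac1 was not called (-0.03 ± 0.06, adjusted p = 0.68). Oligodendrocyte genes moved with this list, as given further on, and their part in it was not tested. Of 10 neurotrophic factors and receptors, 4 were higher in dorsal and 3 in ventral pieces, against 27.7% and 32% of all tested genes. These counts were 2 and 3 when animal 1 was left out, 3 and 1 for animal 2, and 3 and 2 for animal 3. Gfra2 (2.07-fold, 1.05 ± 0.04) and Ntrk2, the receptor of brain-derived neurotrophic factor (1.16 ± 0.06, other probe sets from -0.62 to 1.33) were higher in dorsal pieces, and Bdnf itself was called (1.49 ± 0.37) except without animal 1 or 3 (adjusted p = 0.102 and 0.0991).

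Guidance genes, which steer axons, were called in both directions at shares near those of all tested genes (27.7% in dorsal and 32% in ventral direction). Among 29 semaphorins, plexins and neuropilins, 9 were higher in dorsal and 12 in ventral pieces, so that the counts say nothing particular about the family. Sema3a, a repellent made by motor neurons and other ventral cells, had 6.02, 6.35 and 6.71 in dorsal and 8.94, 8.87 and 8.95 in ventral pieces (5.9-fold, -2.56 ± 0.15, adjusted p = 0.00187). Sema4d (3.9-fold, -1.97 ± 0.16), Plxnb3 (3.58-fold, -1.84 ± 0.09), Sema3d (3.25-fold, -1.70 ± 0.09) and Sema7a (2.58-fold, -1.37 ± 0.12) were higher in ventral pieces too. The receptor Plxna2 was higher in dorsal pieces, at 11.38, 11.68 and 11.39 against 8.99, 8.77 and 9.11 (5.77-fold, 2.53 ± 0.15, adjusted p = 0.00187), with Plxnc1 (3.13-fold, 1.64 ± 0.11), Sema6b (2.12-fold, 1.08 ± 0.09), Plxna3 (2.09-fold, 1.06 ± 0.09) and Sema4g (0.96 ± 0.05). Of 27 Eph, ephrin, Slit, Robo and netrin genes, 12 were higher in dorsal pieces, 8 without animal 3, and 8 were higher in ventral pieces, the latter again near the share of all genes. Netrin 1 (Ntn1), the attractant of the ventral midline, had 8.41, 8.34 and 8.46 in dorsal and 10.14, 10.33 and 10.24 in ventral pieces (3.56-fold, -1.83 ± 0.07, adjusted p = 0.00121). Epha4 (2.65-fold, -1.41 ± 0.06), Ephb1 (2.11-fold, -1.07 ± 0.05) and Slit2 (2.08-fold, -1.05 ± 0.06) were higher in ventral, and Robo2 (3.12-fold, 1.64 ± 0.05), Efna5 (2.99-fold, 1.58 ± 0.05), Slit1 (2.94-fold, 1.55 ± 0.07), Ephb6 (2.36-fold, 1.24 ± 0.07) and Ntn4 (2.34-fold, 1.23 ± 0.15) in dorsal pieces. Slit1 and Slit2 thus differed in opposite directions. Of 16 classical cadherins 6 were higher in each region, against 27.7% and 32% of all tested genes, led by Cdh8 (7.42-fold, 2.89 ± 0.12) and Cdh3 (at least 6.19-fold, 2.63 ± 0.07) in dorsal and Cdh9 (2.35-fold, -1.23 ± 0.04) and Cdh20 (2.11-fold, -1.08 ± 0.08) in ventral pieces. The cadherin counts fell to 4 and 4 with animal 2 left out and to 6 and 4 with animal 3 left out. Cdh3 passed the filter through the dorsal arrays alone.

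Genes of the signals that pattern the embryonic cord from ventral to dorsal were called in both directions. Of 43 on the array, 11 were below the filter, and 7 of those were at the floor on all 6 arrays, among them Gli1, Wnt1 and Wnt3a. Sonic hedgehog (Shh), made by the floor plate, had 2.15, 2.50 and 2.60 in dorsal and 4.33, 4.39 and 4.18 in ventral pieces (at least 3.7-fold, -1.89 ± 0.14, adjusted p = 0.00245). Its effector Gli2 (3.65-fold, -1.87 ± 0.14), its antagonist Hhip (2.81-fold) and its transducer Smo (2.23-fold) were also higher in ventral pieces. Bone morphogenetic proteins act from the roof plate in the embryo, but here Bmp4 (3.23-fold, -1.69 ± 0.15), Bmp7 (2.29-fold, -1.20 ± 0.09) and their target genes Msx1 (3.15-fold, -1.66 ± 0.14) and Id1 (-0.99 ± 0.06) were higher in ventral pieces. Gdf10 of the same superfamily was higher in dorsal pieces, at 9.66, 9.69 and 9.53 against 6.19 on all 3 arrays (10.8-fold on these values, 3.44 ± 0.05, adjusted p = 0.000707). So were the secreted Wnt inhibitor Sfrp1 (2.58-fold, 1.37 ± 0.06), Wnt4 (2.46-fold, 1.30 ± 0.12) and Id4 (0.45 ± 0.06), while the dorsal call of Pax3 (1.52 ± 0.41) was lost without animal 1 or 3 (adjusted p = 0.0756 and 0.143). In all, 18 of 32 were higher in ventral pieces (32% of all tested genes were) and 9 in dorsal pieces, the latter near the 27.7% of all. The dorsal count was 5 without animal 1 and 4 without animal 3. Shh passed the filter through the ventral arrays alone. Bmp4 is also a gene of oligodendrocyte precursors. RNA of their listed genes was higher in ventral pieces, as given below. Any part of these cells in the Bmp4 difference was not tested.

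Oligodendrocyte and astrocyte genes were higher in ventral pieces almost without exception. All 9 tested oligodendrocyte precursor genes were higher there (32% of all tested genes were), with a median of -0.94. Olig2, the factor that specifies the lineage, had 10.10, 10.05 and 10.06 in dorsal and 11.37, 11.40 and 11.35 in ventral pieces (2.48-fold, -1.31 ± 0.04, adjusted p = 0.000979). Sox10 (2.52-fold, -1.33 ± 0.10), Gpr17 (2.13-fold, -1.09 ± 0.04), Olig1 (-0.94 ± 0.05), Ptprz1 (-0.93 ± 0.05), Cspg4 (-0.91 ± 0.04), Pdgfra (-0.56 ± 0.04) and Lhfpl3 (-0.54 ± 0.05) shared the direction. Genes of myelinating oligodendrocytes went further, with 17 of 18 higher in ventral pieces and a median of -1.81. Mog, a protein of the outermost myelin layer, had 10.09, 9.56 and 10.31 against 13.18, 13.22 and 13.33 (9.56-fold, -3.26 ± 0.16, adjusted p = 0.00143). Gjb1 was near the floor in dorsal pieces, at 2.29, 2.17 and 2.25, and 6.47, 5.99 and 6.11 in ventral ones (at least 15.5-fold, -3.95 ± 0.09). It passed the filter through the ventral arrays alone. Ermn (7.02-fold, -2.81 ± 0.08), Cldn14 (4.66-fold, -2.22 ± 0.08), Mag (4.4-fold, -2.14 ± 0.11) and Cldn11 (3.66-fold, -1.87 ± 0.16) are further examples. In each of them every ventral value exceeded every dorsal one. Late myelin genes thus differed by more than lineage factors in these pieces, as a comparison of medians without a test.

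Mbp, the major myelin protein, was the gene of that list that was not called, at 15.95, 15.97 and 15.97 in dorsal and 15.97, 15.94 and 16.01 in ventral pieces (-0.01 ± 0.04, adjusted p = 0.808). Those values lie near the top of the scale, which ended at 16.23, and dimmer probe sets of Mbp differed by -2.16 to 0.73. Cholesterol synthesis, which supplies myelin with its main lipid, had 18 of 19 genes higher in ventral pieces, with a median of -0.94. Mvd (2.58-fold, -1.37 ± 0.10), Dhcr7 (2.34-fold, -1.22 ± 0.04), Fdps (2.23-fold, -1.16 ± 0.07), Sc5d (2.15-fold, -1.11 ± 0.07) and Lss (2.15-fold, -1.11 ± 0.11) were among the largest, and Srebf2, the factor that controls the pathway, was not called (-0.32 ± 0.09, adjusted p = 0.0577; another probe set at 0.10). The call of Pmvk (-0.23 ± 0.04) was lost whichever animal was left out (adjusted p = 0.0559, 0.0648 and 0.0931 with animal 1, 2 or 3 left out). Astrocyte genes were higher in ventral pieces for all 18 tested, with a median of -0.86. Gfap, the astrocytic filament, had 11.12, 10.78 and 11.02 in dorsal and 12.03, 12.15 and 12.08 in ventral pieces (2.16-fold, -1.11 ± 0.11, adjusted p = 0.00418), and S100b (2.67-fold, -1.42 ± 0.05), Agt (2.74-fold, -1.46 ± 0.06), Gpr37l1 (2.59-fold, -1.37 ± 0.04), Fgfr3 (2.3-fold, -1.20 ± 0.05) and Aldh1l1 (-0.71 ± 0.05) followed.

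**Figure D4:**
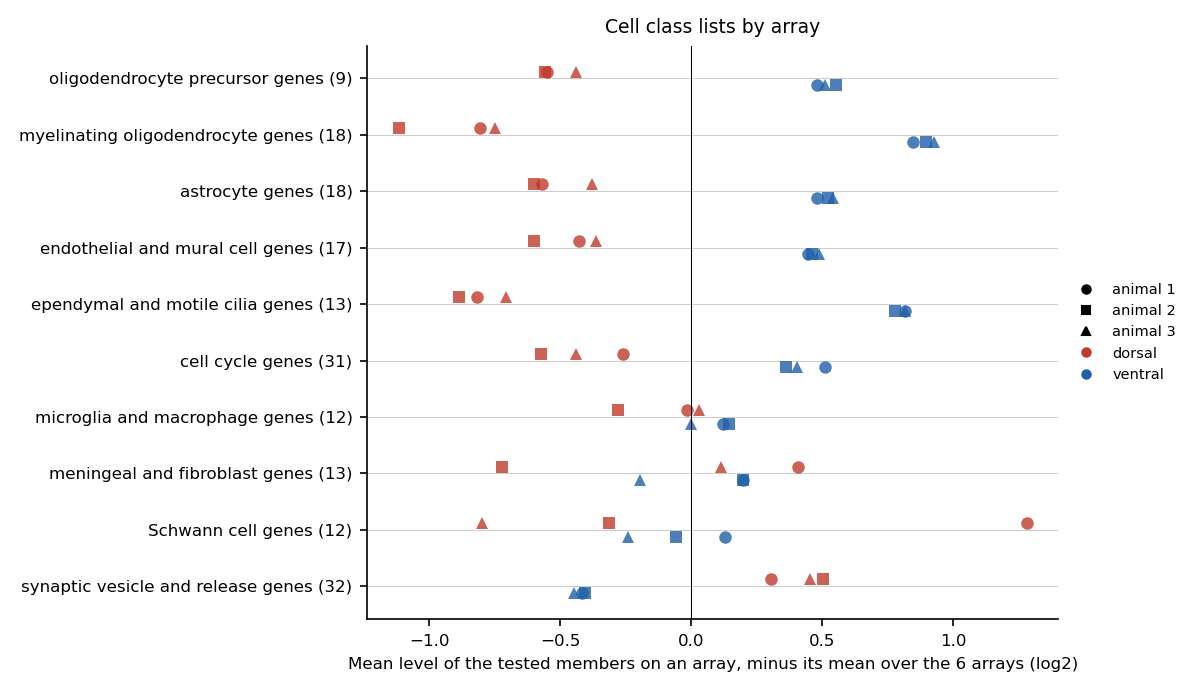
Mean level of the tested members of 10 gene lists on each array, minus the mean of the list over the 6 arrays (log2). Red symbols are dorsal and blue ones ventral arrays, shapes mark the animals, and the number of genes stands in brackets. Oligodendrocyte, astrocyte, vessel, ependymal and cell cycle lists are higher on all 3 ventral arrays, the synaptic list is higher on all 3 dorsal arrays, and the Schwann cell list is high on dorsal array 1.

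Vessel, ependymal and dividing cell genes were also higher in ventral pieces. Of 17 endothelial and mural cell genes 15 were higher there, with a median of -0.85. Acta2, the actin of smooth muscle, had 7.71, 7.42 and 7.89 in dorsal and 10.50, 10.54 and 11 in ventral pieces (8.04-fold, -3.01 ± 0.09, adjusted p = 0.000967). The glucose transporter Slc2a1 (2.42-fold, -1.28 ± 0.05), the receptor Flt1 (2.21-fold, -1.14 ± 0.06), the efflux pump Abcb1a (2.09-fold, -1.06 ± 0.12) and the tight junction gene Cldn5 (-0.78 ± 0.09) were smaller examples. Ependymal cells line the central canal and bear motile cilia. Of their genes 9 of 13 were higher in ventral pieces (32% of all tested genes were), with a median of -1.41. Ccdc153 and Fam216b passed the filter through the ventral arrays alone. Fam216b had 2.89, 2.96 and 2.53 against 7.98, 7.75 and 7.86 (at least 33.5-fold, adjusted p = 0.000878), Dynlrb2 had 3.63, 3.09 and 3.67 against 7.46, 7.30 and 7.46 (15.4-fold, adjusted p = 0.000911), and Foxj1, the master factor of motile cilia, had 4.0, 4.05 and 4.02 against 5.39, 5.39 and 5.53 (2.66-fold, adjusted p = 0.00115). In each of them the regions were apart on all arrays. Cell cycle genes were higher in ventral pieces for 27 of 31 genes (32% of all tested genes were), with a median of -0.92. Aurka passed the filter through the ventral arrays alone. Mki67, present in all dividing cells, had 9.03, 8.64 and 8.69 against 9.93, 10.03 and 9.86 (2.22-fold, -1.15 ± 0.11, adjusted p = 0.00427), and Bub1 (3.18-fold, -1.67 ± 0.04), Mcm3 (2.96-fold, -1.57 ± 0.19), Cenpe (2.44-fold, -1.29 ± 0.07), Cdc6 (2.42-fold, -1.27 ± 0.05) and Kif11 (2.32-fold, -1.22 ± 0.13) were the largest. Another probe set gave -0.24 for Bub1 and -0.72 for Cenpe.

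Microglia were the glial list without such a difference. Of 12 genes tested, 11 were not called, and their median was -0.15. Cx3cr1 (-0.14 ± 0.07, adjusted p = 0.173), P2ry12 (-0.15 ± 0.13, adjusted p = 0.38) and the complement genes C1qa (-0.11 ± 0.11, adjusted p = 0.422), C1qb (-0.24 ± 0.14, adjusted p = 0.205) and C1qc (0.25 ± 0.28, adjusted p = 0.479) were not called. Ctss, a lysosomal protease, was the called gene, at 10.43, 10.32 and 10.56 in dorsal and 10.89, 10.98 and 10.98 in ventral pieces (1.42-fold, -0.51 ± 0.07, adjusted p = 0.00791). A missing call with 3 animals does not show that levels were equal.

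Genes of neighbouring tissues were checked next, since membranes and nerve roots cling to the cord. Of 15 sensory ganglion genes on the array, 12 were below the filter and 9 of them at the floor throughout, among them the heat receptor Trpv1 and the sodium channel Scn10a, which define pain-sensing ganglion neurons. Those tested were Prph, Fxyd2 (1.01 ± 0.09) and Prrxl1, which neurons of the cord also express. Of 4 blood and 12 skeletal muscle genes on the array 1 each was above the filter, namely Slc4a1 (-0.58 ± 0.25, adjusted p = 0.129) and Acta1 (0.20 ± 0.11, adjusted p = 0.195). Genes at the floor do not show that a tissue was absent, since Chat was at the floor in ventral pieces too. Meningeal and fibroblast genes were not called for 10 of 13, and the direction changed from gene to gene. Ccn3 was higher in dorsal (9.38, 8.75 and 8.74 against 6.82, 6.15 and 6.25, 2.55 ± 0.04) and the ventral calls of Lum (-2.03 ± 0.27; adjusted p = 0.0609 without animal 2 and 0.051 without animal 3) and Aldh1a2 (-0.46 ± 0.10; adjusted p = 0.135 without animal 1 and 0.126 without animal 2) were lost with fewer animals. Ptgds, an abundant enzyme of the meninges, varied more among dorsal arrays (7.82, 6.30 and 11.88) than between regions (8.56, 9.34 and 8.09 in ventral pieces, 0.00 ± 1.53, adjusted p = 1).

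Schwann cell genes set dorsal array 1 apart. The mean level of the 12 tested genes was 10.03 there, against 8.44 and 7.95 on dorsal arrays 2 and 3 and 8.51 to 8.88 on the ventral arrays. Egr2, the factor of peripheral myelination, had 10.53, 8.03 and 6.88 in dorsal and 7.38, 6.88 and 6.88 in ventral pieces and was not called (1.43 ± 0.70, adjusted p = 0.163). Plekha4 (10, 7.36 and 6.94 against 7.03, 6.60 and 6.37; 1.44 ± 0.59, adjusted p = 0.116) and Ncmap (9.47, 7.10 and 5.45 against 6.49, 6.30 and 5.82; 1.14 ± 0.75, adjusted p = 0.265) had the same shape. The regions overlapped in these genes or nearly did, because of the other dorsal arrays. Of the list, 2 genes were higher in dorsal and 3 in ventral pieces, with a median of 0.34, and these counts became 3 and 4 when animal 1 was left out and 1 and 1 when animal 2 or animal 3 was. Calls were Drp2 (0.55 ± 0.05) and Sostdc1 (1.70 ± 0.31; adjusted p = 0.0801 without animal 2 and 0.0553 without animal 3) in dorsal and Cadm4 (-0.48 ± 0.03), Mal (-2.08 ± 0.28; adjusted p = 0.0597 without animal 2 and 0.057 without animal 3) and Cdh19 (-2.22 ± 0.52; adjusted p = 0.133 without animal 2 and 0.151 without animal 3) in ventral pieces. Over all tested genes, 29 differences of at least 2-fold were not called. Of these, 11 were highest on dorsal array 1, 2 on dorsal array 2 and 3 on dorsal array 3. On ventral arrays 1, 2 and 3 the numbers were 7, 4 and 2. A single deviating array can itself keep a gene from a call, so these counts describe the 29 genes and are no check of an array. The calls reported above as kept without animal 1 do not rest on dorsal array 1.

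Genes of general upkeep differed little in size. Of 67 genes of the mitochondrial respiratory complexes, 47 were called higher in ventral pieces, but none by 2-fold, with a median of -0.25. That count was 27 without animal 1, 31 without animal 2 and 14 without animal 3. Atp5g2 (-0.64 ± 0.05), Atp5o (-0.62 ± 0.05), Sdhc (-0.61 ± 0.04), Ndufs8 (-0.55 ± 0.04) and Ndufs1 (-0.48 ± 0.06) were the largest called in every such fit. Of 9 housekeeping genes, 2 were higher in dorsal and 4 in ventral pieces with a median of -0.02, and Actb had 14.73, 14.80 and 14.76 in dorsal and 14.73, 14.75 and 14.77 in ventral pieces (0.02 ± 0.04, adjusted p = 0.719). Immediate early genes, which respond to activity and to handling of tissue, had 6 of 20 higher in dorsal (27.7% of all tested genes were), 4 in ventral pieces (32% of all) and 10 not called. Egr3 and Npas4 passed the filter through the dorsal arrays alone. Egr3 had 7.82, 6.46 and 5.86 in dorsal pieces and stood near the floor in ventral ones (at least 23.6-fold, 4.56 ± 0.44, adjusted p = 0.00415). Npas4 (at least 5.07-fold, 2.34 ± 0.10), the heat shock gene Hspa1a (3.78-fold, 1.92 ± 0.04) and Egr1 (3.14-fold, 1.65 ± 0.21; adjusted p = 0.0507 with no filter on dim genes) were higher in dorsal, and Nr4a3 (2.9-fold, -1.53 ± 0.15) and Jun (2.07-fold, -1.05 ± 0.04) in ventral pieces. Fos was not called (0.45 ± 0.14, adjusted p = 0.0667).

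**Figure D5:**
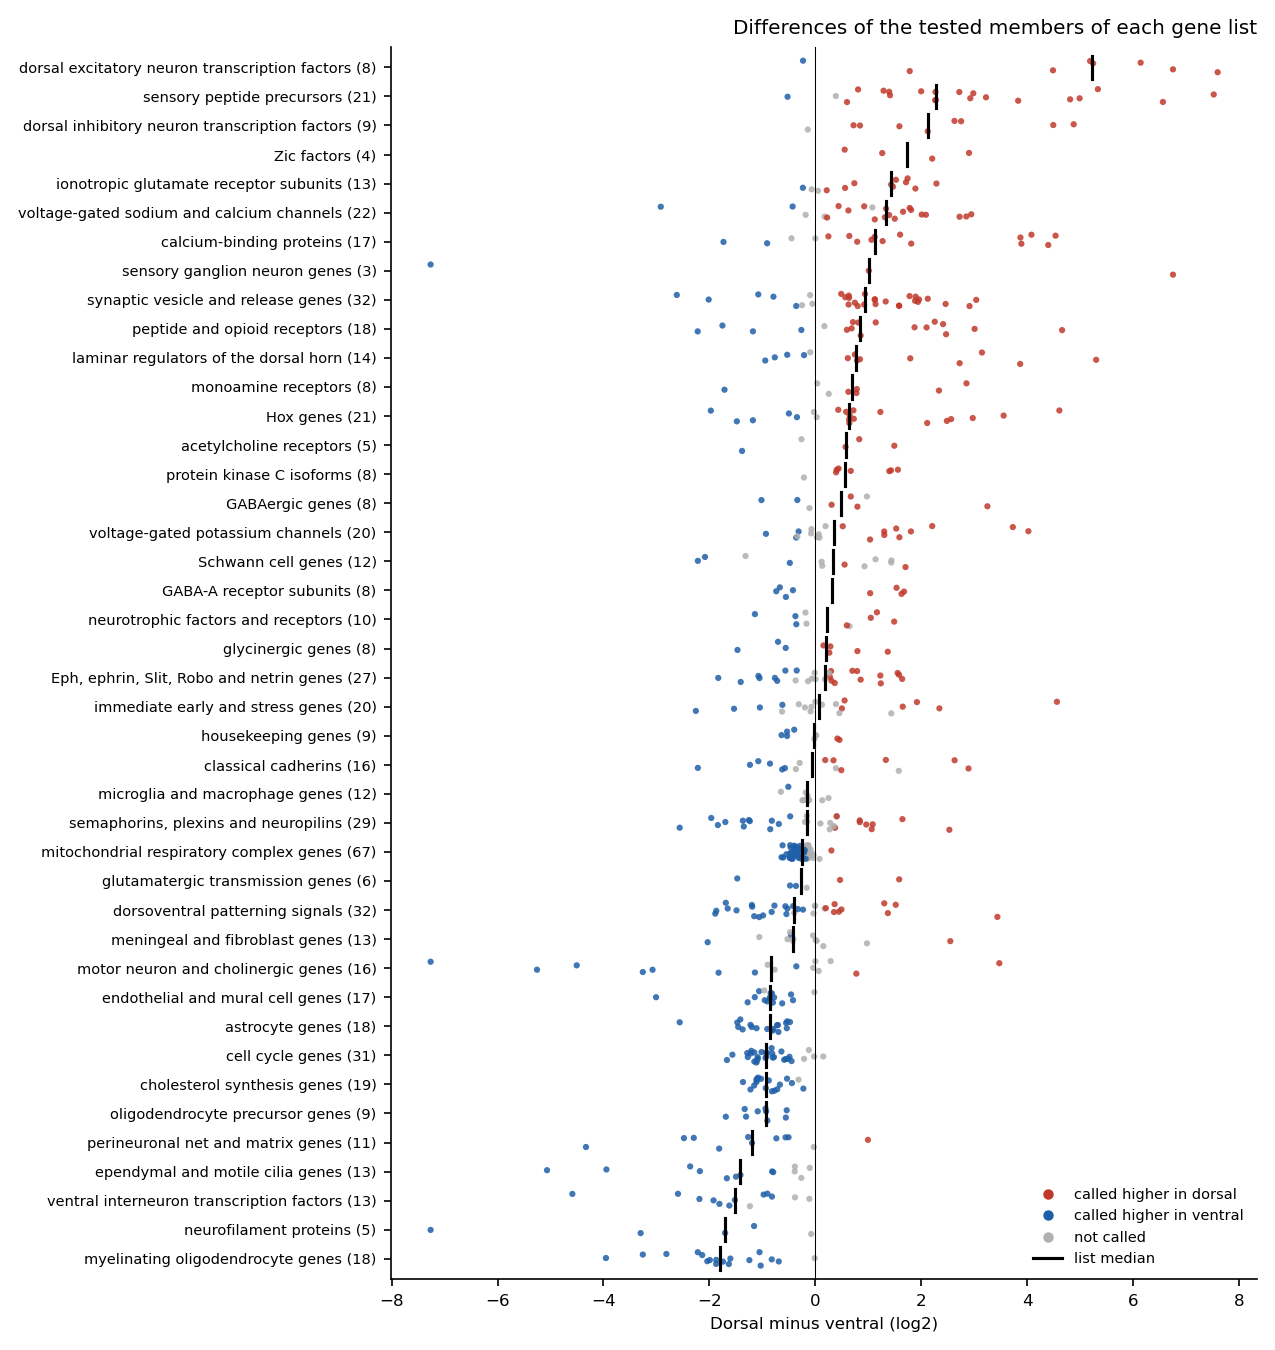
Difference between dorsal and ventral pieces (log2) of each tested member of the lists that hold at least 3 tested genes, sorted by their median (black bars). Red points were called higher in dorsal, blue ones higher in ventral, and grey ones were not called, with the number of tested genes in brackets. Lists of dorsal factors and peptides lie at the top and myelin, neurofilament and ventral interneuron lists at the bottom.

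Several genes carried probe sets that did not follow each other. Of 3265 called genes with more than 1 single-symbol probe set, 627 had another of opposite sign, and 33 had another that was opposite by at least 2-fold. In 8 genes the brightest probe set and another were both 2-fold or more apart in opposite directions: Ap1s2, Cds2, Gnao1, Itsn1, Ncam1, Ppp3cb, Rnf130 and Tln1. Ncam1, a neural adhesion molecule with several transcript forms, had 13.23, 13.43 and 13.32 in dorsal and 12.03, 12.07 and 12.05 in ventral pieces on its brightest probe set (1.28 ± 0.05, adjusted p = 0.00121), while its other probe sets ranged from -1.05 to 1.52. Gnao1, a G protein subunit, differed by 1.34 ± 0.06 on the brightest and by -1.09 on its other probe set. For the other 6, differences on the brightest probe set were 1.19 for Ap1s2, -2.21 for Cds2, -1.42 for Itsn1, 1.56 for Ppp3cb, -1.17 for Rnf130 and 1.20 for Tln1, against -1.10, 1.12, 1.08, -1.02, 1.38 and -1.68 on the most opposed one. Which transcripts these probe sets detect was not tested.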

How the data were processed

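RNA of 3 dorsal and 3 ventral pieces was measured on arrays. The values the authors deposited were read as log2 levels because of their range (2.15 to 16.23). The labels give no scale. The steps that summarised, normalised and floored the signals are not given in the sources used here. Intermediate arrays entered only an alternative, and the number of arrays limits the precision.

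Gene names came from the annotation of the platform: of 45037 probe sets, 34945 had 1 symbol, 932 several and 9160 none. The RefSeq list of genes matched 34741 by Entrez number and changed 0 symbols. For each gene the brightest probe set with a single symbol was used. Genes whose mean over the 6 arrays was within 1 log2 unit of the lowest value were left out, a limit at 3.15. This removed 6600 of 18193 genes, 4801 of them at the floor (within 0.01 of the lowest value) on all 6 arrays.

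Region and animal were fitted with limma 3.58.1 in R 4.3.3 (data.table, version 1.17.8; figures with Python 3.11.15 and matplotlib 3.10.9) and moderated with eBayes (2 residual and 1.45 prior degrees of freedom). P-values are two-sided, Benjamini-Hochberg adjusted over the 11593 genes and called at 0.05. The procedure was tested on simulated data. The animal block rests on the titles: deviations of same-animal pieces from their region means correlated at 0.0296 to 0.178 and those of different animals at -0.155 to 0.0901. Nothing says whether RNA of an animal was split technically, so p-values measure the spread between these 3 pairs.

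The comparison and 44 gene lists were chosen with earlier results of these data known, so no list has a p-value. Named genes are the 15 largest called differences in each direction and, per list, the largest called members in each direction (up to 5), every member of lists of at most 15, and the brightest uncalled ones (up to 3). Others were chosen after their values were seen. Values near the floor (under 1 log2 unit above it) on all 3 arrays of a region give "at least" folds. Promoters are the 250 bases before RefSeq starts on GRCm38.p6.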

Additional observations from a re-analysis of the deposited data

How the results depend on the processing

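With an animal left out, 4384 to 5747 genes were called, 2089 to 2700 higher in dorsal and 2295 to 3047 higher in ventral pieces, lowest without animal 3. Such fits have 1 residual degree of freedom. Every other setting stayed within 1.5 times of 6923. With no replicate block, the fit that ignores the pairing by animal, 7290 genes were called, 6726 of them shared, and it ended the calls of 3 of the 331 called genes named in the text. Without the filter 5009 of 18193 genes were called, 4883 of them shared (70.5% of the 6923), and 30 of the 331 calls ended; 29 of these were also lost without some animal, the exception being Egr1. The 30th percentile keeps the same genes. The range over the other settings with all 6 arrays was 6530 to 7580. Each single array left out without the block (added after the data were seen) gave 6495 to 7300. Centring the arrays moved the dorsal share of calls from 46.4% to 41.8%, and the median of all genes from -0.02 to -0.07.

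Of the 362 genes named, 4 called ones changed sign with another choice of probe set, as did 3 that were not called (Crtac1, Gria4 and Pbx3). Over all settings 10 uncalled genes changed sign, among them Actb and Ptgds when arrays were centred or quantile normalized. With the most variable probe set, and with the mean of all, Gphn gave -0.65 and -0.031, Prkcz -0.73 and -0.10, Tln1 -1.68 and -0.20, and Rnf130 1.38 and 0.052. The other probe sets of these genes, given above, show the source of the change. In 287 of the 331 called genes the call was kept whichever animal was left out. A difference from a region at the floor is limited by the floor.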

Other observations

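Outside the lists and the 15 largest differences in each direction, further genes are given as single examples, chosen after their values were seen. In the dorsal direction, Frzb, a secreted Wnt antagonist, had 11.26, 11.30 and 11.04 in dorsal and 6.0, 6.27 and 6.20 in ventral pieces (33-fold, 5.05 ± 0.10, adjusted p = 0.000831 in limma). Rasgrp1, an activator of Ras that is regulated by diacylglycerol, had 7.56, 8.20 and 7.61 against 2.98, 3.31 and 3.22 (24.6-fold, 4.62 ± 0.12, adjusted p = 0.000878). Camk2a, the calcium-dependent kinase of excitatory synapses, had 7.57, 7.88 and 7.79 against 3.53, 3.70 and 3.64 (17.4-fold, 4.12 ± 0.05, adjusted p = 0.000707). Otof, a calcium-binding ferlin of transmitter release, was 17.9-fold higher in dorsal pieces (4.16 ± 0.07), and the bHLH factor Neurod6 was 12.7-fold higher (3.67 ± 0.07). Single orphan receptor genes picked for their dorsal excess were Gpr6 (4.26 ± 0.13), Gpr149 (3.86 ± 0.32), Gpr12 (3.70 ± 0.26) and Gpr101 (3.28 ± 0.10).

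In the ventral direction, Otp, a homeodomain factor of ventral inhibitory interneurons, had 5.29, 4.58 and 4.51 in dorsal and 7.88 on all 3 arrays in ventral pieces (8.51-fold, -3.09 ± 0.19, adjusted p = 0.00193). Aldh1a1, which makes retinoic acid, had 7.77, 7.24 and 8.24 against 10.88, 10.83 and 10.98 (8.85-fold, -3.15 ± 0.19, adjusted p = 0.00188). Sncg, the gamma synuclein of motor and sensory neurons, had 7.80, 7.27 and 7.34 against 10.11, 10.11 and 9.97 (6.05-fold, -2.60 ± 0.12, adjusted p = 0.00142). Hspb8, a small heat shock protein, was 8.19-fold higher in ventral pieces (-3.03 ± 0.18). Other genes picked for their ventral excess were Gpr37 (-3.31 ± 0.25), Tmem125 (-3.23 ± 0.16), Ppp1r14a (-3.15 ± 0.14), Gpr62 (-2.62 ± 0.04) and S1pr5 (-2.54 ± 0.14), and the carbonic anhydrase genes Car7 (-3.26 ± 0.06) and Car3 (-2.92 ± 0.33). None of the calls given with values here was lost when an animal was left out.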
